A study of Mus musculus with 2 samples.

Results

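Toll-like receptors, NOD-like receptors, C-type lectins and TREM receptors are the sensors with which a macrophage detects microbes and damaged cells. The 44 genes described here are these receptors together with their co-receptors, adaptors, kinases and inflammasome proteins. They were taken as a list of symbols, chosen with earlier results of these data known. A probe was assigned to a gene when its RefSeq accession belonged to that gene. Of the 20660 genes on the array, 43 of the 44 had at least 1 probe. A probe was counted as measured when the scanner software called it well above background on each array, and 38 members had such a probe. Clec7a, the β-glucan receptor dectin-1, had no probe under this rule.

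The mRNA was that of macrophages cultured out of bone marrow, which M-CSF drives to this cell type. The Capn6-Ko array held RNA from calpain-6-deficient mice and the Capn6-Wt array RNA from wild-type mice, with 1 array per genotype. Calpain-6 is a calpain that lacks the active-site cysteine of the proteases. Both cultures came from femoral marrow of male mice and received 50 ng/mL of M-CSF, 10 ng/mL of TNF-α and 10% serum, so the inflammatory cytokine TNF-α was present in both genotypes. Cells that did not attach were washed away. The description names culture day 3 while the source name says day 4, and the series text speaks of pooled cells of 4 mice without saying whether this is per genotype. Strain, age and the kind of Capn6 allele are not given in the sources used here. With 1 pooled array per genotype there is no replicate, no test and no p-value, and a difference between genotypes cannot be told apart from a difference between any pair of cultures.

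Toll-like receptors bind lipids and proteins of microbes at the cell surface and nucleic acids in endosomes, and signal through the adaptors MyD88 and TRIF to NF-κB and interferon regulatory factors. NOD-like receptors and AIM2 sense microbial products in the cytosol, and several of them assemble inflammasomes, in which the adaptor ASC activates caspase-1. C-type lectins such as Mincle and dectin-2 bind microbial sugars and glycolipids and signal through ITAM-bearing adaptors to CARD9, while TREM receptors use the ITAM adaptor DAP12.

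Values are processed signals of the scanner software, in arbitrary units on a linear scale. Differences are log2 of Capn6-Ko over Capn6-Wt after each array was set relative to its 75th percentile (372 on the Capn6-Ko array and 377 on the Capn6-Wt array). The ± beside a difference is called the spot SD. It is how far repeated spots of probes at that signal level vary, scaled to the number of spots behind the value, with both arrays combined. It comes from 263 probes with 10 planned spots, and not from each gene's own spots alone. It does not cover mice, culture, RNA extraction or labelling. A log2 difference of 0.32 in size, which is 25% higher or 20% lower in Capn6-Ko, was the size used for counting genes. Signals of different probes depend on the probe and are not compared between genes. Of non-control spots, 52.8% passed the background call in Capn6-Ko and 51.7% in Capn6-Wt. The targeted gene Capn6 had 1 probe, which read 8.65 in Capn6-Ko and 3.93 in Capn6-Wt. Neither passed the background call, so the probe does not check the labels.

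Macrophage markers were present on both arrays. Csf1r, the M-CSF receptor, had a signal of 16414 in Capn6-Ko and 14496 in Capn6-Wt, and Adgre1, which encodes F4/80, had 18733 in Capn6-Ko and 16635 in Capn6-Wt. All 9 measured macrophage markers lay within 0.32 of 0, with a median log2 difference of 0.069, and 4 of them (Csf1r, Adgre1, Fcgr1 and C1qb) were higher by more than 2 spot SDs. Some markers of other cells differed more. Stromal and smooth muscle markers were lower, all 9 that were measured and 8 past the counted size, at a median of -0.53 and with a summed level of 54.7 in Capn6-Ko and 82.0 in Capn6-Wt, in multiples of the 75th percentile. Tagln, a smooth muscle gene, was at -0.61 ± 0.077 and the collagen gene Col1a2 at -0.60 ± 0.077. The 5 measured monocyte markers had a median of 0.51, with 4 on the higher side: Ccr2 (0.69 ± 0.19), Cx3cr1 (0.59 ± 0.063) and F13a1 (0.51 ± 0.17) were past the counted size, and Spn (0.076 ± 0.11) was not. Fn1 (-0.35 ± 0.076) was lower, and its bright probe (4593 in Capn6-Ko, 5938 in Capn6-Wt) made up most of the summed level of the list, 19.0 in Capn6-Ko and 20.4 in Capn6-Wt, which was lower in Capn6-Ko while the median was higher. Of 10 measured type I interferon response genes 9 were on the higher side, 4 past the counted size, with a median of 0.25 and a summed level of 24.6 in Capn6-Ko and 19.9 in Capn6-Wt. Neutrophil markers summed to 25.1 in Capn6-Ko and 24.99 in Capn6-Wt, dendritic cell markers to 261 in Capn6-Ko and 262 in Capn6-Wt, and B lymphocyte markers to 4.16 in Capn6-Ko and 4.26 in Capn6-Wt. Of the 10 neutrophil markers 8 were measured, among them S100a8 (3494 in Capn6-Ko, 3579 in Capn6-Wt) and Elane (1884 in Capn6-Ko, 1736 in Capn6-Wt), and Retnlg failed the background call on both arrays. The neutrophil median was -0.012, with Ltf (0.33 ± 0.16) past the counted size on the higher side and 0 on the lower. Of the 6 B lymphocyte markers Cd22, Cd79b and Ms4a1 were measured and Cd79a failed the call on both arrays. Their median was -0.056, and Ms4a1 (-0.48 ± 0.32) was past the counted size on the lower side but within 2 spot SDs of 0. Of the 7 dendritic cell markers 4 were measured, with a median of 0.049 and none past the counted size, and Flt3, Zbtb46 and Xcr1 failed the call on both. These sums follow the brightest probes of each list. In such a mixed RNA, fewer cells of a type and less RNA per cell cannot be told apart, and the part of these marker shifts in the differences below was not tested.

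Most of the sensing machinery was at nearly the same level in both cultures, as were most genes. Of the 38 measured members, 35 (92.1%) lay within 0.32 of 0, among them Myd88, Tlr2, Tlr9, Pycard and Casp1, and of all measured genes 91.8% did. The 3 members past this size (7.89%), the lipopeptide receptor gene Tlr1, the endotoxin co-receptor gene Cd14 and the lectin gene Clec5a, were all higher in Capn6-Ko, and 0 were lower. Of all 12875 measured genes, 2.64% were past this size on the higher side and 5.53% on the lower side. Most members were bright: 30 were above the median level of measured probes, and of these 2 (Tlr1 and Cd14) were past this size, where among all 7899 genes above that level 0.899% were higher and 1.27% lower. With each array centred on its median instead, 4.33% of all measured genes were higher and 4.16% lower, and the members counted 3 higher and 0 lower. After normexp background correction 1 member was higher by this size and 0 lower, and of all measured genes 0.629% and 1.52%. Without the filter on dim probes these were 6 and 0 members, and 8.07% and 12.5% of all genes. The median of the 38 differences was 0.047, where that of all measured genes was -0.0056. The SD of the differences was 0.13 for the members and 0.18 for all genes, but among those above the median level it was 0.12 for the members and 0.11 for all genes. None of the 38 measured members reached 1.5-fold, a size that 0.334% of all measured genes reached on the higher side and 1.26% on the lower.

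**Figure D1:**
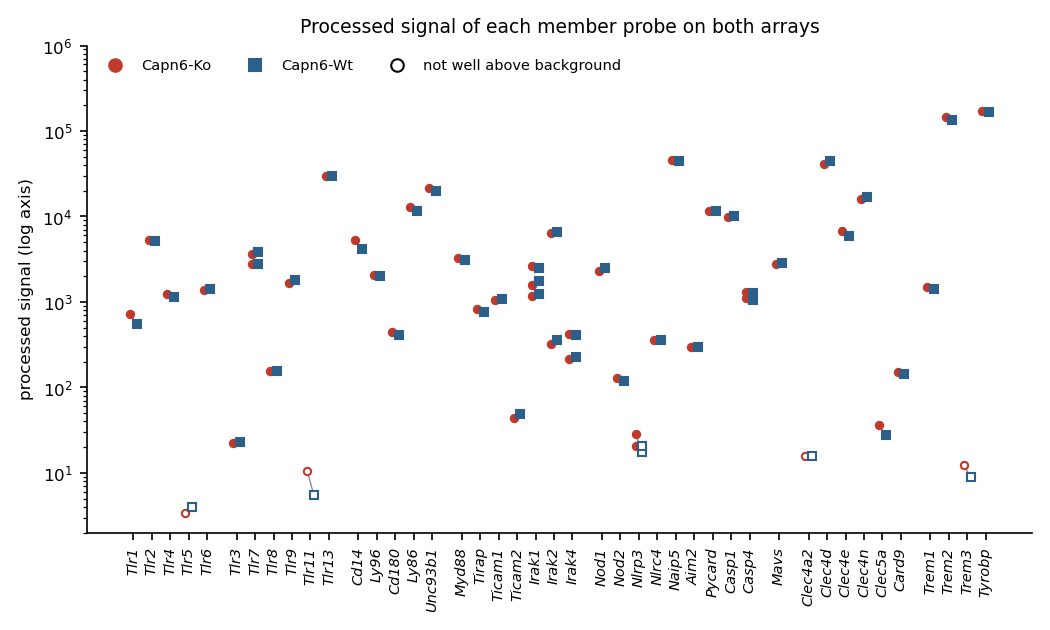
Processed signal (log axis) of every probe of the members on the Capn6-Ko array (red circles) and the Capn6-Wt array (blue squares), with genes grouped by role along the horizontal axis; open symbols mark probes that failed the background call. The pairs lie close together, with Tlr1 at 727 in Capn6-Ko and 550.1 in Capn6-Wt and Cd14 at 5319.7 in Capn6-Ko and 4187 in Capn6-Wt among the visible gaps.

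By the spot error, 6 members were higher in Capn6-Ko by more than 2 spot SDs and 0 were lower. They were Tlr1, Cd14, Myd88, Clec4e, Tlr4 and Tlr2. With each array centred on its median the number was 11, but that centre raises the difference of every gene. The share of all measured genes was not counted under it, so the 11 has no share to be set against. Of the 9 measured macrophage markers, 4 were higher and 0 lower by the same measure. Among all measured genes under the reported setting, 4.99% were higher and 6.27% lower by this measure, which was added after the values were seen. Tlr2 and Myd88 entered it with small differences because 10 spots each make their spot error small. Clec5a did not enter it, since its probe was dim and its spot error large.

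**Figure D2:**
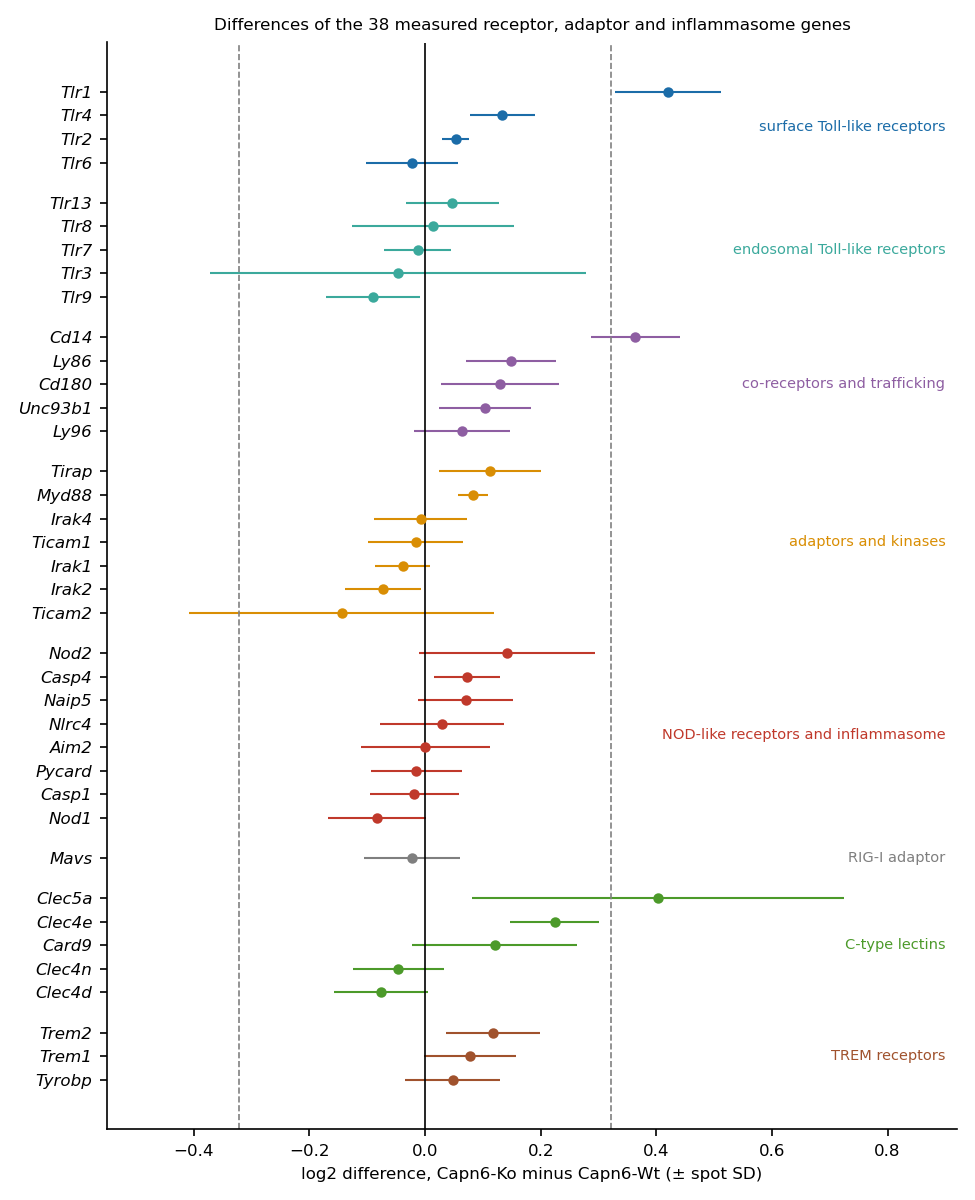
Log2 difference of each of the 38 measured members, Capn6-Ko minus Capn6-Wt, with bars of 1 spot SD, grouped by role; dashed lines mark 0.32 in size. Tlr1 (0.42), Clec5a (0.40) and Cd14 (0.36) lie beyond the right dashed line, and no gene lies beyond the left one.

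Among the surface receptors, Tlr1 was past the counted size and its partners were not. Tlr1 forms a heterodimer with TLR2 that binds triacylated bacterial lipopeptides. Its single spot had a signal of 727 in Capn6-Ko and 550.1 in Capn6-Wt, a difference of 0.42 ± 0.092, or 1.34-fold. Tlr6, the alternative partner of TLR2 for diacylated lipopeptides, had 1367 in Capn6-Ko and 1407 in Capn6-Wt, a difference of -0.023 ± 0.079. Tlr2 itself was read from 10 spots per array. They ran from 5208 over a median of 5346 to 5519 in Capn6-Ko, and from 5023 over a median of 5224 to 5558.5 in Capn6-Wt. The ranges overlapped over most of their width, and the difference was 0.053 ± 0.024. Tlr4, the receptor for lipopolysaccharide, had spots at 1241 and 1221 in Capn6-Ko and at 1096 and 1178 in Capn6-Wt. Both Capn6-Ko spots were above both Capn6-Wt spots, and the difference was 0.13 ± 0.057. Tlr5, the flagellin receptor, failed the background call on both arrays, with 3.41 in Capn6-Ko and 3.95 in Capn6-Wt. Over the 4 measured surface receptors the median was 0.093.

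Tlr1 and Tlr6 lie next to each other on chromosome 5 with 0 coding genes between them, and are shown here because their values differed while the genes adjoin. The sequences are the first start listed for each gene in RefSeq, of 2 listed for each, on build GRCm38.p6 and the minus strand, 5′ to 3′, from 250 bases before to 50 bases after the start. Tlr1 is at chr5:64933509-64933808 and Tlr6 at chr5:64959117-64959416. Capitals mark matches to the motifs searched.
Tlr1: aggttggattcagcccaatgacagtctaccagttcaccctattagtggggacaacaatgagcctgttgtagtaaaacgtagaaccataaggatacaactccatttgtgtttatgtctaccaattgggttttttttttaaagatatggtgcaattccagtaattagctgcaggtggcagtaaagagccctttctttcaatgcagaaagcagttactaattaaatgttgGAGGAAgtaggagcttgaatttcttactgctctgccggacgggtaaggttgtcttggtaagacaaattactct
Tlr6: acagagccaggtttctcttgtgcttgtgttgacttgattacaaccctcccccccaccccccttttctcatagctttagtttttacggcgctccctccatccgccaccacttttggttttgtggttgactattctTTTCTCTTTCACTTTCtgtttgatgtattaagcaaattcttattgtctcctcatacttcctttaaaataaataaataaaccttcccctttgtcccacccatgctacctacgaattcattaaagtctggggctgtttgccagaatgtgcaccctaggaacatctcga
The Tlr1 window held a PU.1 core, the letters GAGGAA read by a myeloid transcription factor, 23 bases before the start. The Tlr6 window held 0 PU.1 cores and a pair of overlapping interferon response elements, the letters GAAA, 2 free bases and GAAA again, on the opposite strand, beginning 116 and 110 bases before the start. Each motif was searched on both strands, and of 27025 promoter windows of this length, 1 per gene, 28.3% held a PU.1 core and 3.49% an interferon response element. AP-1 sites, the letters TGANTCA, were in 7.93% of windows and κB sites in 4.35%, and neither was in the Tlr1 or Tlr6 window. A match is a run of letters and not a binding site.

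Of the 35 members with a searched window, 16 (45.7%) held a PU.1 core, where 28.3% of all windows did. An interferon response element was in 4 (11.4%), where 3.49% of all windows held one. A κB site was in 4 (11.4%), against 4.35% of all windows, and an AP-1 site in 3 (8.57%), against 7.93%. Cd14 and Ticam2 lie on chromosome 18, which was not searched. The κB sites were in the windows of Tlr2, Tlr3, Naip5 and Casp4. Neither these shares nor the relation of any motif to the differences was tested.

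No endosomal receptor differed by more than 2 spot SDs. Tlr7, which binds RNA rich in uridine and guanosine, had a probe at 3681 in Capn6-Ko and 3794 in Capn6-Wt and one at 2764 in Capn6-Ko and 2799 in Capn6-Wt, with a mean difference of -0.013 ± 0.058. The Tlr7 probes thus gave nearly the same answer. Tlr8, its neighbour on the X chromosome, had 157 on both arrays and a difference of 0.013 ± 0.14. Tlr9, the receptor for unmethylated CpG DNA, had 1677 in Capn6-Ko and 1808 in Capn6-Wt, or -0.090 ± 0.081, the lowest of the endosomal receptors. Tlr13, a mouse receptor for bacterial ribosomal RNA, had 29965 in Capn6-Ko and 29374 in Capn6-Wt, or 0.047 ± 0.080. Tlr3, which binds the RNA duplexes of viruses, was dim at 22.2 in Capn6-Ko and 23.2 in Capn6-Wt, so that its difference of -0.048 had a spot SD of 0.33. Tlr11, a mouse receptor for a profilin of Toxoplasma, failed the background call on both, with 10.6 in Capn6-Ko and 5.52 in Capn6-Wt. Their median over 5 measured genes was -0.013, and it was 0.052 with the arrays centred on their medians, so no direction is given.

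The co-receptors and trafficking factors were all on the higher side in Capn6-Ko, but only Cd14 of the 5 went past the counted size. Cd14 hands lipopolysaccharide to the TLR4 complex. Its signal was 5319.7 in Capn6-Ko and 4187 in Capn6-Wt, a difference of 0.36 ± 0.076, or 1.29-fold. Ly96, which encodes the lipopolysaccharide-binding subunit MD-2 of that complex, had 2062 in Capn6-Ko and 1998 in Capn6-Wt, or 0.064 ± 0.083. The complex thus showed a larger value for Cd14 than for Tlr4 (0.13) or Ly96, and these differences between genes were not tested. Cd180, a relative of TLR4 without a signalling domain, had 442 in Capn6-Ko and 409 in Capn6-Wt, or 0.13 ± 0.10. Its partner Ly86 (MD-1) had 12813 in Capn6-Ko and 11702 in Capn6-Wt, or 0.15 ± 0.078. Unc93b1, the chaperone that carries nucleic acid-sensing receptors to endosomes, had 21287 in Capn6-Ko and 20052 in Capn6-Wt, or 0.10 ± 0.080. Over the 5 genes the median was 0.13, and 47.8% of all measured genes were higher in Capn6-Ko by any amount.

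Adaptors and kinases of the Toll-like receptors lay close to 0. Myd88, the adaptor used by most of these receptors, was the best measured, with 10 spots per array. They ran from 3167 over a median of 3258.5 to 3359.9 in Capn6-Ko, and from 2949 over a median of 3125 to 3261 in Capn6-Wt. The Capn6-Ko spots lay mostly above the Capn6-Wt spots, with some overlap, and the difference was 0.083 ± 0.026, or 1.06-fold. Tirap, which recruits MyD88 to the membrane, had 819 in Capn6-Ko and 768 in Capn6-Wt, or 0.11 ± 0.088. Ticam1 (TRIF), the adaptor of TLR3 and of endocytosed TLR4, had 1067 in Capn6-Ko and 1092 in Capn6-Wt, or -0.016 ± 0.082. Ticam2 (TRAM), which links TLR4 to TRIF, was dim, at 44.3 in Capn6-Ko and 49.6 in Capn6-Wt, and its -0.14 ± 0.26 was the lowest value of all 38 members.

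**Figure D3:**
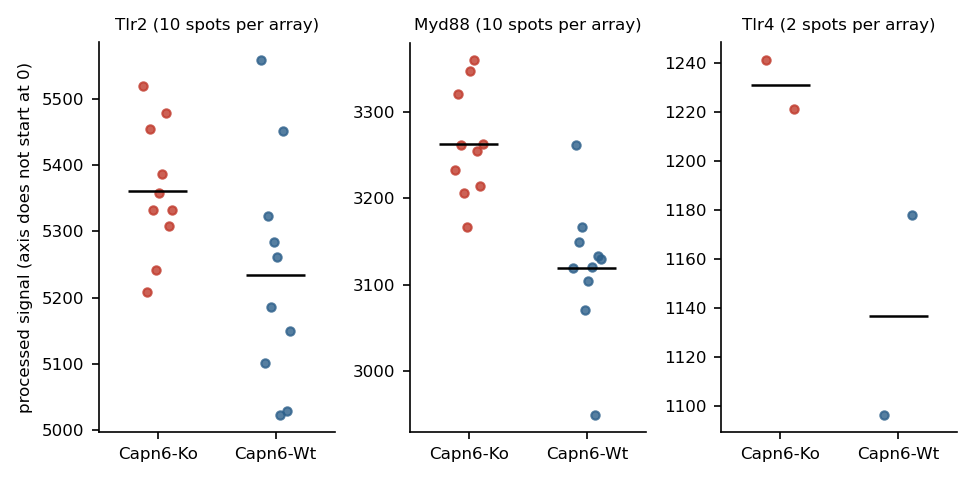
Processed signal of each spot of the 3 members with repeated spots, Capn6-Ko left and Capn6-Wt right, with bars at the geometric mean; the vertical axes do not start at 0. Tlr2 spots overlap widely, Myd88 spots are mostly higher in Capn6-Ko, and both Tlr4 spots of Capn6-Ko (1241 and 1221) are above those of Capn6-Wt (1096 and 1178).

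The IRAK kinases act just below MyD88. Irak4, the first of them in the cascade, had probes at -0.055 and 0.040, with a mean of -0.0078 ± 0.080. The 3 probes of Irak1 differed in sign, at -0.085, 0.088 and -0.12, with a mean of -0.039 ± 0.047. The middle value belonged to the probe with signals of 2630.1 in Capn6-Ko and 2506 in Capn6-Wt. Irak2 had probes at -0.13 (324 in Capn6-Ko, 359 in Capn6-Wt) and -0.017 (6363 in Capn6-Ko, 6519 in Capn6-Wt), with a mean of -0.073 ± 0.066. None of the IRAK genes differed by more than 2 spot SDs. Over the 7 adaptors and kinases the median was -0.016, and it was 0.048 with the arrays centred on their medians.

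Genes of the same pathway outside the members also lay close to 0. Of 19 further signalling genes, from Traf6 and Map3k7 to the IκB kinases and interferon regulatory factors, all 19 were measured and none was past the counted size, with a median of 0.0091. The highest were the transcription factors Irf5 (6355 in Capn6-Ko and 5589 in Capn6-Wt, 0.20 ± 0.076) and Irf7 (83.8 in Capn6-Ko and 73.7 in Capn6-Wt, 0.20 ± 0.19). The lowest were the IκB kinase subunit genes Ikbkb (-0.16 ± 0.081) and Ikbkg (-0.13 ± 0.076), the second of which had probes at -0.25 and -0.0050.

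Of 13 genes that restrain Toll-like receptor signalling, 0 were past the counted size on the higher side and 2 on the lower side. Il1rl1, the receptor for interleukin-33, whose membrane form sequesters adaptors, had measured probes at -0.38 (158 in Capn6-Ko, 209 in Capn6-Wt) and -0.55 (67.4 in Capn6-Ko, 99.9 in Capn6-Wt), with a mean of -0.47 ± 0.11. Il1rl1 is also made by mast cells and stromal cells. The stromal markers above had a median of -0.53, and their part in the Il1rl1 difference was not tested. Otud7b, a deubiquitinase, was dim at 30.2 in Capn6-Ko and 46.3 in Capn6-Wt, or -0.60 ± 0.30, and was -0.20 after normexp background correction. The highest were Tnfaip3 (A20), at 0.15 ± 0.084, and the ubiquitin ligase Rnf216, at 0.11 ± 0.082. The list had a median of 0.0044.

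The chaperones and proteases that prepare Toll-like receptors differed little. Of 14 such genes 13 lay within 0.32 of 0, and the median was 0.013. The exception, Tlr12, a mouse partner of TLR11, was dim, with 33.7 in Capn6-Ko and 27.1 in Capn6-Wt, or 0.33 ± 0.33, a difference of about the size of its spot SD. Next highest was the chaperone gene Cnpy4 (0.088 ± 0.094), and the lowest were the lipopolysaccharide-binding protein gene Lbp (-0.21 ± 0.33) and the protease gene Ctsk (-0.11 ± 0.078).

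The core inflammasome genes lay close to 0. Pycard (ASC), the adaptor, had 11453 in Capn6-Ko and 11719 in Capn6-Wt, or -0.015 ± 0.078. Casp1, the protease that matures interleukin-1β, had 9947 in Capn6-Ko and 10202 in Capn6-Wt, or -0.018 ± 0.078. Casp4, the mouse caspase-11 gene and the neighbour of Casp1 on chromosome 9, had probes at 0.11 and 0.036, with a mean of 0.072 ± 0.057. None of these 3 differed by more than 2 spot SDs.

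The sensors upstream of them were also close in both cultures. Naip5 binds flagellin and engages Nlrc4. Naip5 had 46195 in Capn6-Ko and 44559 in Capn6-Wt, or 0.070 ± 0.082, and Nlrc4 had 359 in Capn6-Ko and 357 in Capn6-Wt, or 0.029 ± 0.11. Naip5 has close paralogs, and probe sequences were not used here to tell them apart. The values of the paralogs were 0.24 ± 0.18 for Naip1, -0.13 ± 0.077 for Naip2 and -0.037 ± 0.084 for Naip6. Aim2, the DNA sensor, had 297 in Capn6-Ko and 301 in Capn6-Wt, or 0.00056 ± 0.11. Nod1 and Nod2 bind fragments of peptidoglycan. Nod1 had 2308 in Capn6-Ko and 2476 in Capn6-Wt, or -0.084 ± 0.084. Nod2 had 130.3 in Capn6-Ko and 119.6 in Capn6-Wt, or 0.14 ± 0.15. With Pycard, Casp1 and Casp4, these sensors had a median of 0.015 over 8 genes.

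Nlrp3, the sensor of the best-known inflammasome, was near the detection limit. Both of its probes passed the background call in Capn6-Ko and failed it in Capn6-Wt, one at 28.8 in Capn6-Ko and 17.7 in Capn6-Wt, the other at 20.8 in Capn6-Ko and 20.6 in Capn6-Wt. The ratio of Capn6-Ko to Capn6-Wt was 1.65-fold for the first (0.72 ± 0.33) and 1.02-fold for the second (0.034 ± 0.33). The probes thus disagree on its size, and each rests on 1 spot per array. Both Capn6-Wt signals failed the call although they exceed 16.6, the lowest signal that passed it in Capn6-Wt. The ratios are therefore plain ratios of dim signals and not lower limits.

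Of 22 measured genes among other NOD-like receptors and inflammasome partners, 3 were past the counted size on the higher side and 0 on the lower, with a median of 0.073. Il1b, the cytokine that caspase-1 cleaves, was dim but read from 10 spots, from 30.4 over a median of 37.3 to 43.3 in Capn6-Ko and from 21.3 over a median of 24.7 to 49.7 in Capn6-Wt. The highest Capn6-Wt spot was marked as an outlier by the scanner software, and without it the Capn6-Wt spots ended at 29.7, below all Capn6-Ko spots. The difference was 0.62 ± 0.11, and it was 0.22 after normexp background correction, which compresses dim signals. Mefv, the gene of the inflammasome sensor pyrin, had a probe at 2112 in Capn6-Ko and 1641 in Capn6-Wt and one at 249 in Capn6-Ko and 181 in Capn6-Wt. These gave 0.38 and 0.48, with a mean of 0.43 ± 0.075, so both Mefv probes were past the counted size. Nlrp10 was dim, at 0.33 ± 0.33. The lowest were the channel gene Panx1 (-0.18 ± 0.077) and Naip2.

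RNA and DNA sensors of the cytosol signal through MAVS or STING. Mavs, the adaptor of RIG-I and MDA5, had 2772 in Capn6-Ko and 2851 in Capn6-Wt, or -0.022 ± 0.083. All 12 measured sensors of this list lay within 0.32 of 0, with a median of 0.057. The highest were Ifih1 (MDA5), at 0.16 ± 0.17, and Dhx58, at 0.13 ± 0.10, and the lowest were Ddx58 (RIG-I), at -0.060 ± 0.17, and Dhx36, at -0.035 ± 0.084. Many of these sensors are induced by interferon. Beside them, the 10 measured interferon response genes had a median of 0.25 and ran from Ifit2 (-0.21 ± 0.33) to Oas2 (0.73 ± 0.085).

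**Figure D4:**
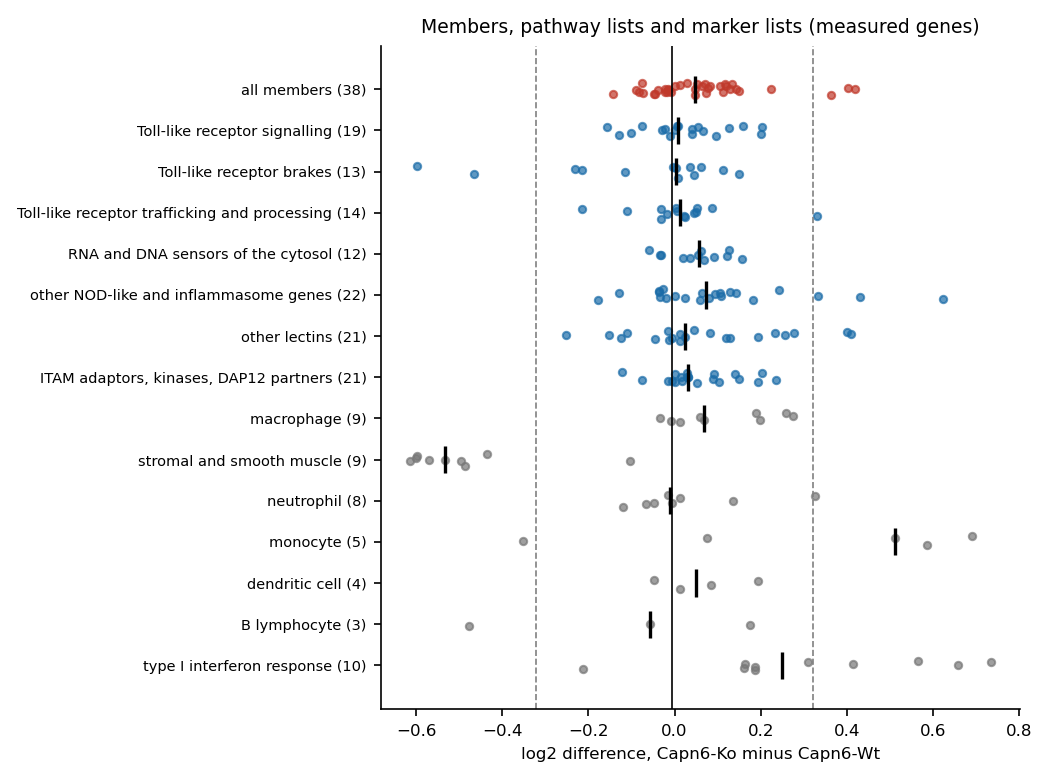
Log2 differences, Capn6-Ko minus Capn6-Wt, of the measured genes of the members (red), of 7 further lists of the same pathways (blue) and of 7 marker lists (grey), with the number of genes in brackets; thick bars are list medians, the thin line is the median of all measured genes and dashed lines mark 0.32 in size. The member median of 0.047 and the pathway medians, from 0.0044 to 0.073, lie close to 0. The stromal median is at -0.53, the monocyte median at 0.51 and the type I interferon median at 0.25.

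The C-type lectins split by gene. Clec4e, which encodes Mincle, a receptor for mycobacterial cord factor, had 6768 in Capn6-Ko and 5867 in Capn6-Wt, or 0.22 ± 0.076, a 1.17-fold difference. Clec4d, whose product MCL pairs with Mincle, had 41589 in Capn6-Ko and 44388 in Capn6-Wt, or -0.076 ± 0.081. Clec4n, the mannan receptor dectin-2, had 16189 in Capn6-Ko and 16930.2 in Capn6-Wt, or -0.046 ± 0.079. Clec5a, a DAP12-coupled receptor, was dim, with 36.0 in Capn6-Ko and 27.6 in Capn6-Wt, or 0.40 ± 0.32 and 1.32-fold. Clec5a was within 2 spot SDs of 0. Clec4a2, an inhibitory receptor, failed the background call on both arrays, with 16.0 in Capn6-Ko and 15.9 in Capn6-Wt. Card9, the adaptor below these receptors, had 153 in Capn6-Ko and 143 in Capn6-Wt, or 0.12 ± 0.14. Over the 5 measured genes the median was 0.12, and with only probes above the median level it was -0.046, where Clec5a and Card9 drop out.

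The Clec4 genes form a run on chromosome 6, in which Clec4d lies between Clec4n and Clec4e with 0 coding genes on either side. At the other end of the run, Clec4a1 had 4086 in Capn6-Ko and 3116 in Capn6-Wt, or 0.41 ± 0.080, and Clec4a3 had 2081 in Capn6-Ko and 1844 in Capn6-Wt, or 0.19 ± 0.083. Then came Clec4a4, dim at 20.5 in Capn6-Ko and 18.8 in Capn6-Wt (0.14 ± 0.33), and Clec4b1, which had a mean of 0.26 ± 0.078 over a probe at 0.11 (1358 in Capn6-Ko, 1274 in Capn6-Wt) and one at 0.40 (202 in Capn6-Ko, 154 in Capn6-Wt). The run thus held values on both sides of 0, with Clec4n and Clec4d the measured genes below it.

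The windows of the adjoining genes Clec4e and Clec4d are shown because their values differed in sign. They are on build GRCm38.p6, 5′ to 3′ on each gene's strand, with 1 start listed for each, Clec4e at chr6:123289822-123290121 on the minus strand and Clec4d at chr6:123261857-123262156 on the plus strand. Capitals mark the same motifs as above.
Clec4e: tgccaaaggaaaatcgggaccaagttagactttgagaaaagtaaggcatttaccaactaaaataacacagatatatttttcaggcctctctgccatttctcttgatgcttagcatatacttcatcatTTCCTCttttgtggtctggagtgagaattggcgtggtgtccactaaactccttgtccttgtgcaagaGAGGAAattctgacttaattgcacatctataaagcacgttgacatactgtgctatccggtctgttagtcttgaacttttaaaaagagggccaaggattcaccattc
Clec4d: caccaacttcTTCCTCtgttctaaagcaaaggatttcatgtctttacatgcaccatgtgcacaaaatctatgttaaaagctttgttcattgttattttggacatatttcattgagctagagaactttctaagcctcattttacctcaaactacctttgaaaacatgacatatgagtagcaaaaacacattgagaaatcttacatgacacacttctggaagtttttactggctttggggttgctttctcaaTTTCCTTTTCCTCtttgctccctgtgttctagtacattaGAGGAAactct
The Clec4e window held a PU.1 core on the opposite strand, beginning 123 bases before the start, and one on the gene's strand, beginning 56 bases before it. In the Clec4d window there were 3 PU.1 cores, the first 240 bases before the start and the others after it, and an interferon response element that begins at the start and overlaps one of these cores. Neither window held a κB or an AP-1 match.

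Other lectins gave a median of 0.024 over 21 measured genes, of which 2 were past the counted size on the higher side and 0 on the lower. The 2 were Clec4a1 and Clec12a, an inhibitory receptor for uric acid crystals, which was dim at 0.40 ± 0.28. The lowest were Cd209g (-0.25 ± 0.29) and Cd33 (-0.15 ± 0.086).

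TREM receptors and their adaptor lay close to 0. Trem2, a receptor for lipids and apoptotic cells, had 145682 in Capn6-Ko and 136011 in Capn6-Wt, or 0.12 ± 0.082. Trem1, an amplifier of inflammatory signalling, had 1496 in Capn6-Ko and 1436 in Capn6-Wt, or 0.077 ± 0.080. Trem3, its neighbour on chromosome 17, failed the background call on both arrays, with 12.3 in Capn6-Ko and 9.04 in Capn6-Wt. Tyrobp (DAP12), the adaptor they share, had 171341 in Capn6-Ko and 167866 in Capn6-Wt, or 0.048 ± 0.082. Their median over 3 genes was 0.077, and none differed by more than 2 spot SDs.

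Of 21 measured ITAM adaptors, kinases and further receptors of this kind, none was past the counted size, and the median was 0.030. By any amount 17 (81.0%) were on the higher side, where 47.8% of all measured genes were. Many of these values were small: 12 of the 21 (57.1%) lay within 1 spot SD of 0, as did 62.3% of all measured genes. Fcer1g, the adaptor of Mincle and dectin-2, was at 0.051 ± 0.082 and the kinase gene Syk at 0.029 ± 0.080. The highest were the inhibitory receptor gene Pilra, whose 3 probes gave 0.20, 0.24 and 0.27 (mean 0.24 ± 0.062), and the phosphatase gene Ptpn6 (0.20 ± 0.078). The lowest were Cd300a (-0.12 ± 0.084) and Treml2 (-0.076 ± 0.22).

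**Figure D5:**
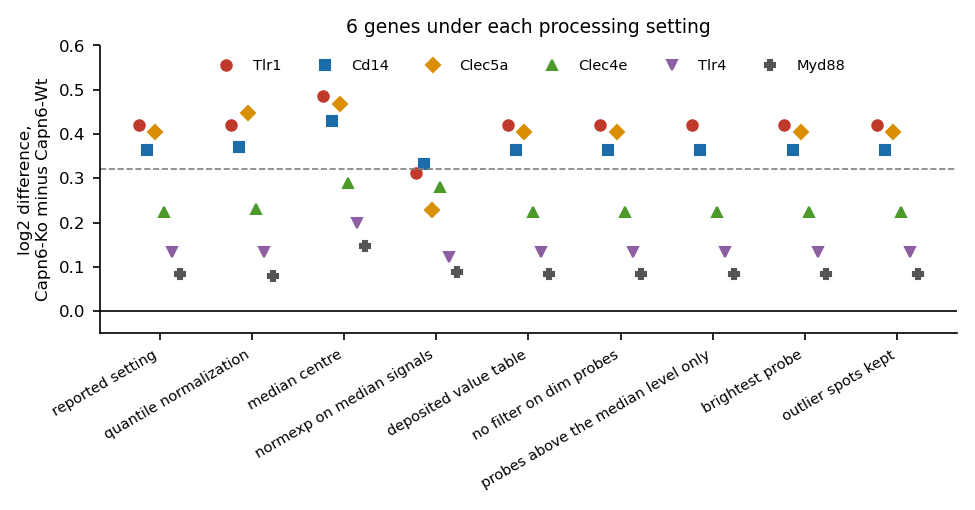
Log2 difference, Capn6-Ko minus Capn6-Wt, of 6 members under the reported setting and 8 alternatives of background correction, scaling, filter and probe choice; the dashed line marks 0.32. Cd14 (0.33 to 0.43) stays above the line in each, while Tlr1 (0.31) and Clec5a (0.23) lie below it after normexp, and Clec5a has no value among probes above the median level. The settings of filter, probe choice and outliers could not move Cd14, which has a single bright probe.

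Of the 3 members past the counted size, Cd14 kept that size under all 8 alternative settings tried, but most of these could not move it. Cd14 has a single bright probe, so the filters, the probe choice and the kept outliers left its value unchanged. The deposited table is the same signal times a constant. Under the settings that could move it, Cd14 was at 0.37 (quantile normalization), 0.43 (median centre) and 0.33 (normexp). Tlr1 was at 0.31 and Clec5a at 0.23 after normexp background correction, both below 0.32. Each of the 3 rests on a single spot per array.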

How the data were processed

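Gene expression was measured on 1 single-colour Agilent array per genotype. Per the file headers, the intensity of each spot was extracted with Agilent Feature Extraction 10.10.1.1 from a design annotated on mm9, both arrays lying on the same slide and scanned together. The processed signal used here is background-subtracted within the array and not scaled between arrays. The authors' deposited value table is the same intensity times 1 constant per array, 2.42 for Capn6-Ko and 2.39 for Capn6-Wt (column medians 50.7 and 53.0).

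Of 59305 non-control spots, those marked as outliers were left out (136 on the Capn6-Ko array, 161 on the Capn6-Wt array), and 0 were saturated. Log2 signals relative to the 75th percentile were averaged per probe. A probe counted as measured if the background call was met by most of its spots, on each array, and a gene's difference is the mean over its measured probes. Of 55681 probes, 28685 carried a RefSeq accession and 27235 matched a symbol in a RefSeq table of GRCm38.p6, used for names and gene order only. The spot SD came from 263 probes with 10 planned spots, in 8 bins of level. Motifs were searched in RefSeq promoter windows of GRCm38.p6, outside chromosome 18.

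No test was run, since 1 pooled array per genotype leaves no replicate. The members and lists, and the counted size of 0.32, were chosen with earlier results of these data known. Every member is named, and of each further list the 2 highest and 2 lowest genes, while marker lists are given by counts with examples. Neighbours and paralogs of members, Fcer1g, Syk and the examples of markers were named beyond this, after their values were seen. Alternatives were quantile normalization, a median centre, normexp (offset 50) on the median spot signal, the deposited table, no or a stricter filter, the brightest probe and outliers kept. The number of arrays limits the precision. Python 3.11.15, numpy 2.4.6, pandas 2.3.3, R 4.3.3 and limma 3.58.1 were used, and the gene-level step was tested on simulated data.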

Additional observations from a re-analysis of the deposited data

How the results depend on the processing

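Over the 8 alternative settings, the number of members past the counted size of 0.32 on the higher side moved to 1 after normexp, which left Cd14, and to 6 without the filter on dim probes, which added the dim genes Tlr11, Nlrp3 and Trem3. The number past it on the lower side was 0 under all 8. The number more than 2 spot SDs higher was 11 with a median centre, against 6 as reported, since that centre raises every difference by the same amount. The share of all measured genes by this measure was not counted under that centre. The median of the C-type lectins was -0.046 with only probes above the median level, which drop Clec5a and Card9. Over all measured genes, the shares past that size on the higher and the lower side, 2.64% and 5.53% as reported, were 0.629% and 1.52% after normexp, 8.07% and 12.5% without the filter, 0.868% and 1.296% with only probes above the median level, and 4.33% and 4.16% with a median centre. The median of all 38 members ran from 0.034 to 0.11. The planned normexp correction used the median spot signal, because the files give no mean signal, and it was chosen after seeing the data. Of the members and lists recomputed under these settings, none past this size changed sign. No paired analysis was possible because each genotype has 1 array. Signal over background limits Tlr3, Ticam2, Clec5a, Nlrp3, Tlr12 and Otud7b, all dim. Their signals ran from 17.7 (Nlrp3 in Capn6-Wt) to 49.6 (Ticam2 in Capn6-Wt). The lowest signals that passed the background call were 14.0 in Capn6-Ko and 16.6 in Capn6-Wt.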
